A study of Polyandrocarpa zorritensis and Clavelina lepadiformis with 36 samples.

Results

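The genes described here encode the machinery of autophagy and of the lysosome. They were taken by name from a table of transcripts paired between the colonial ascidians *Polyandrocarpa zorritensis* and *Clavelina lepadiformis*, using a fixed set of human entry names for autophagy proteins, subunits of the vacuolar proton pump, cathepsins and other acid hydrolases. This gave 26 of 4422 ortholog pairs, with 25 names. Of these, 5 pairs belonged to the autophagy core, 4 to the vacuolar proton pump (V-ATPase), 6 to the lysosomal proteases, 5 to the lysosomal glycosidases and sulfatases, and 5 to membrane, lipid and activator proteins of the lysosome. The remaining pair, VAT1, was taken only because its name resembles those of the pump, as VAT-1 is a membrane protein named for vesicle amine transport. The name was the same in both species in 23 pairs, whereas CATL1 was paired with CATL2, ARSB with ARSI, and ATG13 with a transcript that had no name in *C. lepadiformis*. All names are best matches to human proteins, and the table held only pairs that the authors had called differentially expressed in some stage of both species.

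Autophagy is the process by which a cell encloses part of its own cytoplasm in a double membrane, the autophagosome, and delivers it to the lysosome for breakdown. The V-ATPase acidifies the lysosome, cathepsins and glycosidases digest its contents, and NPC1 and NPC2 pass cholesterol on to the rest of the cell. The same acid hydrolases also serve in animal guts, and autophagy is known to increase in starved and in remodelling tissues.

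Both ascidians survive unfavourable seasons as dormant bodies, called spherules in *P. zorritensis* and winter buds in *C. lepadiformis*, from which new zooids germinate. RNA of 36 samples was sequenced, 18 of each species, with 3 replicates each of adult zooids, pre-buds (the budding nest or budding chamber), stolons and dormant tissue, and 6 of germinating tissue. Germinating tissue had been kept for 48 h, in 3 replicates at 18 °C and in 3 at 24 °C, which the authors combined. No treatment is given in the labels, and each replicate pooled several specimens. Dormant spherules of *P. zorritensis* were frozen straight from the field in spring while its other stages grew in the laboratory from the same rope, so that dormancy and field collection cannot be told apart in this species. All tissue of *C. lepadiformis* came from a single laboratory colony.

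Each value is a stage mean, made by the authors from TPM, a measure of transcript abundance corrected for transcript length and library depth, scaled between libraries by the trimmed mean of M-values (TMM). Each stage has 1 mean per species. No spread between replicates, test or p-value can therefore be given for any difference below, and the depth of each sample is unknown. A pair was counted as higher or lower in a stage when its log2(mean + 1) differed by 2-fold or more and the higher of both stages had a mean of 5 or above. Such counts on the deposited scale are set beside the share of all pairs that did so. After the TMM scaling the values of a stage still summed to between 687867 and 1570747 in *P. zorritensis*, where dormant tissue had the largest sum, and to between 741785 and 1274782 in *C. lepadiformis*, where germinating tissue had it. Rescaling every stage to a common sum shifted the median log2 difference of all transcripts between dormant and zooid by -1.09 for *P. zorritensis* but by only -0.061 for *C. lepadiformis*. The place of a gene among all pairs hardly depends on this choice and is given as a percentile, the share of tested pairs with a smaller or equal log2 difference.

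**Figure D1:**
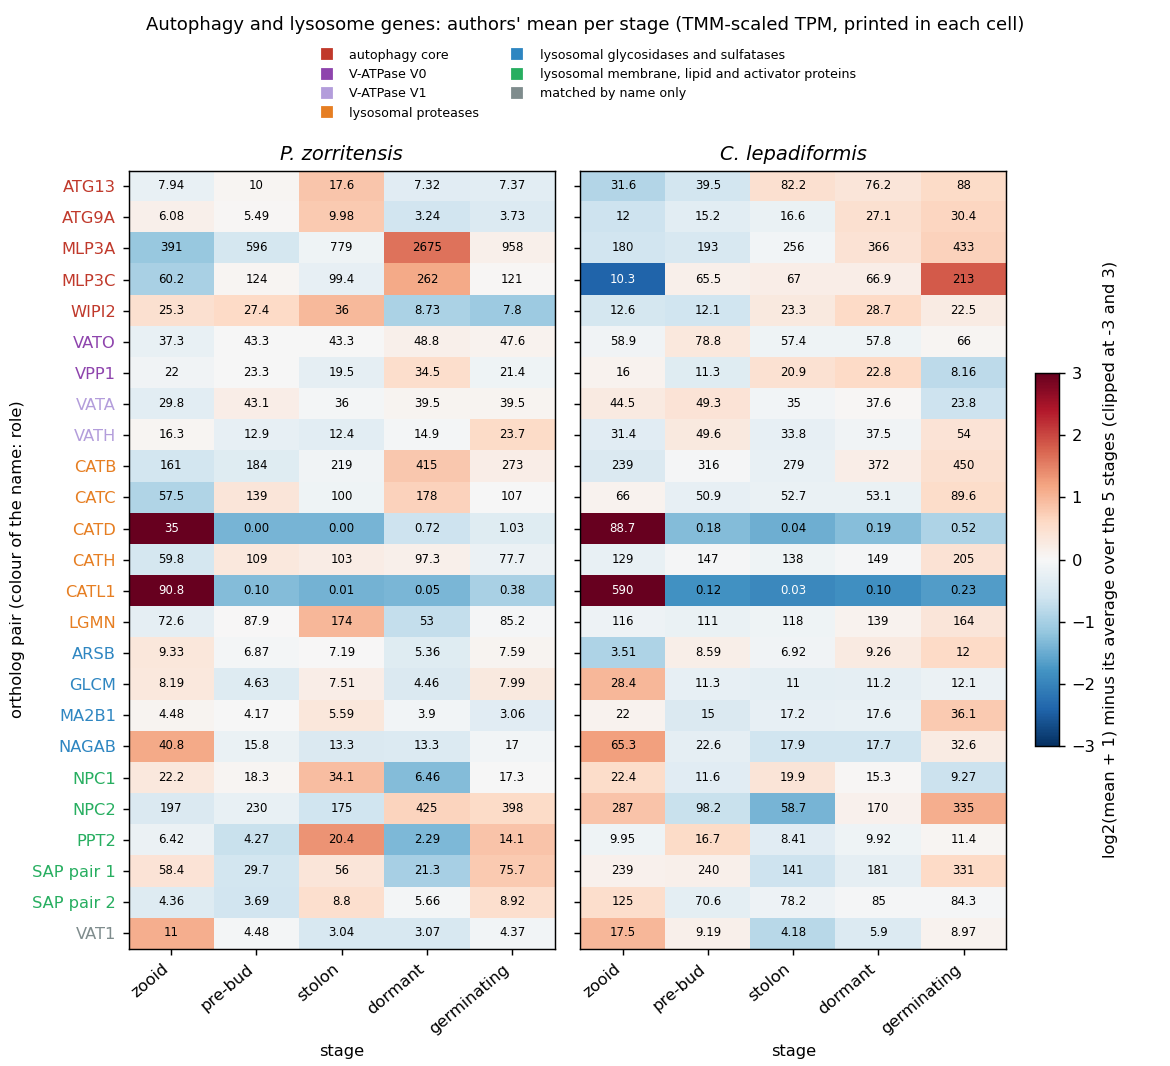
Authors' mean of 25 of the 26 pairs in the 5 stages, printed in the cells, for *P. zorritensis* (left) and *C. lepadiformis* (right). Colour is log2(mean + 1) minus its average over the 5 stages of that species, and the colour of a name gives its role. MLP3A and MLP3C peaked in dormant tissue of *P. zorritensis*, and CATD and CATL1 were close to 0 outside zooids in both species.

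Among the autophagy core, the pairs named for LC3 proteins had their highest levels in dormant spherules. MLP3A (LC3A) and MLP3C (LC3C) are ubiquitin-like proteins that are attached to the growing autophagosome membrane. In *P. zorritensis* the mean of MLP3A was 391 in zooids, 596 in pre-buds, 779 in stolons, 2675 in dormant tissue and 958 in germinating tissue. MLP3A was thus 6.84-fold higher in dormant tissue than in zooids, 4.49-fold higher than in pre-buds and 3.44-fold higher than in stolons. In dormant tissue it ranked 102nd by level among the 27938 transcripts, against 204th in zooids. Relative to all pairs, its log2 difference between dormant and zooid of 2.77 lay at the 98.5 percentile, and it remained at 1.58 with stages rescaled to a common sum. The difference from stolons was 1.78 and did not remain past 2-fold under that rescaling, at 0.82.

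The same gene had a flatter course over the stages of *C. lepadiformis*, from 180 in zooids and 193 in pre-buds to 256 in stolons, 366 in dormant and 433 in germinating tissue. There the highest level on the deposited scale was in germinating rather than dormant tissue, by a log2 difference of 0.24. With a common sum this difference was -0.41, so that germinating tissue was then below dormant tissue. The dormant mean was 2.03-fold that of zooids, a log2 difference of 1.02 at the 89.9 percentile, and fell just short of 2-fold under both rescalings, at 1.00 and 0.95.

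MLP3C differed between the species after dormancy. In *P. zorritensis* it was at 60.2 in zooids, 124 in pre-buds, 99.4 in stolons, 262 in dormant and 121 in germinating tissue. In *C. lepadiformis* it was 10.3 in zooids, between 65.5 and 67.0 in pre-buds, stolons and dormant tissue alike, and 213 in germinating tissue. Dormant tissue was therefore 4.36-fold and 6.52-fold above zooids in the respective species, at the 97.0 and 98.4 percentiles. In *C. lepadiformis*, however, zooids alone were low, and dormant tissue stood 1.02-fold from pre-buds. From dormant to germinating tissue the log2 difference of MLP3C was -1.11 in the former species but 1.66 in the latter. Under the common sum these became -0.52 and 1.00, and the difference from zooids in *P. zorritensis* became 0.93.

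**Figure D2:**
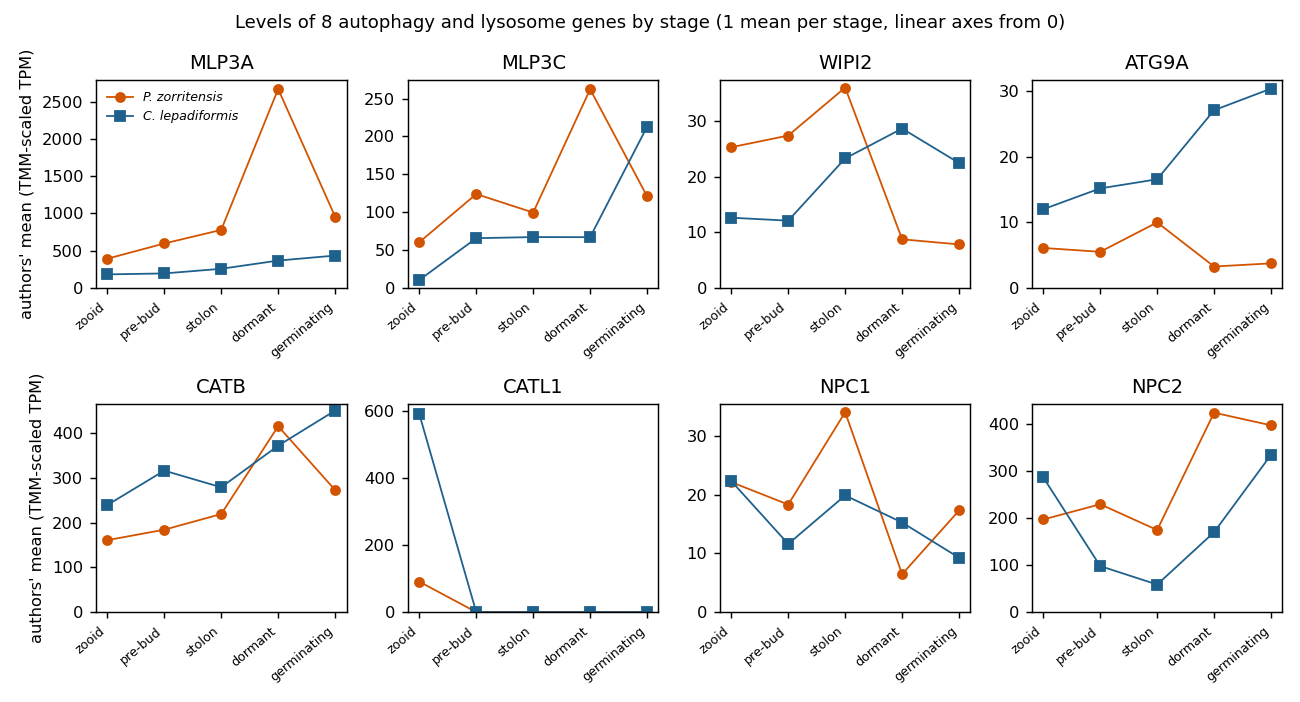
Authors' mean (TMM-scaled TPM, linear axes from 0) of 8 genes in the 5 stages, with *P. zorritensis* as circles and *C. lepadiformis* as squares. Lines join the means of a species and carry no error bars, as each stage has 1 mean. MLP3A reached 2675 in dormant tissue of *P. zorritensis*, whereas WIPI2, ATG9A and NPC1 were near their lowest there.

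The other 3 genes of the core act when an autophagosome begins to form, and in *P. zorritensis* each had its lowest or second lowest mean in dormant tissue. WIPI2 binds phosphatidylinositol 3-phosphate on the forming membrane. In *P. zorritensis* WIPI2 had a mean of 25.3 in zooids, 27.4 in pre-buds, 36.0 in stolons, 8.73 in dormant and 7.80 in germinating tissue. This put dormant tissue below zooids, pre-buds and stolons by log2 differences of -1.43, -1.55 and -1.93. In *C. lepadiformis* the highest mean was instead in dormant tissue, with 12.6 in zooids, 12.1 in pre-buds, 23.3 in stolons, 28.7 in dormant and 22.5 in germinating tissue. Here dormant tissue was above zooids and pre-buds by log2 differences of 1.12 and 1.18, so that WIPI2 passed 2-fold in opposite directions in the 2 species. It was the only member to do so against zooids, as did 3.1% of all pairs.

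ATG9A, the membrane protein of the vesicles that seed autophagosomes, and ATG13, a subunit of the ULK1 kinase complex that starts autophagy, had lower levels in *P. zorritensis*. ATG9A was 6.08 in zooids, 5.49 in pre-buds, 9.98 in stolons, 3.24 in dormant and 3.73 in germinating tissue of this species, and ATG13 was between 7.32 and 10.0 in all stages except stolons, at 17.6. Both were past 2-fold lower in dormant tissue than in stolons, by log2 differences of -1.37 and -1.16, but within 2-fold of zooids. In *C. lepadiformis* the mean of ATG9A was 12.0 in zooids, 15.2 in pre-buds, 16.6 in stolons, 27.1 in dormant and 30.4 in germinating tissue. ATG13 of this species was 31.6 in zooids, 39.5 in pre-buds, 82.2 in stolons, 76.2 in dormant and 88.0 in germinating tissue. Both were past 2-fold above zooids in its dormant tissue, by 1.11 and 1.24 on the log2 scale, at the 90.8 and 92.1 percentiles.

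All 5 core genes were hence past 2-fold higher in dormant tissue than in zooids of *C. lepadiformis*, where 10.4% of all pairs were, with MLP3A the one that lost this under another scaling. ATG9A and WIPI2 were under 2-fold there with a pseudocount of 5, at 0.92 and 0.93 on the log2 scale. In *P. zorritensis* 2 were higher and 1 was lower, where 12.7% and 32.7% of all pairs were. Against stolons the core of *P. zorritensis* divided, with 2 genes higher and 3 lower in dormant tissue, beside 16.3% and 18.6% of all pairs. None of the 5 was past 2-fold above stolons with a common sum. In *C. lepadiformis* no core gene was past 2-fold from stolons. WIPI2 was the single core gene past 2-fold from pre-buds there, where 4.61% of all pairs were higher.

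A wider list of genes of autophagosome formation and fusion held 30 names, of which 8 were among the pairs. None of its members was past 2-fold higher in dormant tissue than in zooids in either species. In *P. zorritensis* 4 of the 7 that reached the minimum mean were past 2-fold lower in dormant tissue than in stolons, beside 18.6% of all pairs, and SNP29 lost this with isoforms summed. In *C. lepadiformis* none of 8 was past 2-fold from stolons, but 3 of 8 were higher and none lower in dormant tissue than in pre-buds, beside 4.61% and 6.04% of all pairs, of which PKHM1 and RBCC1 lost this with isoforms summed. VMP1 and TM41B, scramblases of the endoplasmic reticulum that supply lipid to the autophagosome, were among the 4 of *P. zorritensis*. VMP1 was 27.9 in zooids, 43.6 in pre-buds, 97.5 in stolons, 10.8 in dormant and 32.9 in germinating tissue of *P. zorritensis*. TM41B was 28.0 in zooids, 31.6 in pre-buds, 59.0 in stolons, 9.65 in dormant and 13.3 in germinating tissue. In *C. lepadiformis* VMP1 stayed between 16.8 and 26.7 and TM41B between 6.88 and 13.7. TAXB1, a cargo receptor of selective autophagy, was highest in dormant tissue in both species, at 31.1 and 31.0, and RBCC1 (FIP200), the scaffold of the ULK1 complex, was 20.0 in dormant tissue of *P. zorritensis* against 27.2 in its stolons.

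Genes of nutrient sensing, which in animals set the rate of autophagy, showed few differences past 2-fold. Of 31 names, 8 were found as 9 pairs. On the deposited scale none was past 2-fold between dormant tissue and zooids in *P. zorritensis*, beside 12.7% of all pairs higher and 32.7% lower. FNIP2, a partner of folliculin at the lysosome, was the single one of 8 tested that was so in *C. lepadiformis*, at 8.31 in zooids and 19.5 in dormant tissue, where 10.4% and 27.3% of all pairs were. MTOR, the kinase that represses autophagy in fed cells, was 5.14 in zooids and 2.51 in dormant tissue of *P. zorritensis*, while *C. lepadiformis* had 5.61 and 5.65. With a common sum MTOR was past 2-fold lower in dormant tissue than in zooids of *P. zorritensis*. The pairs named AAKG1, a regulatory subunit of the AMP-activated kinase, had means of 19.7 and 38.4 in dormant tissue of *P. zorritensis* and of 17.4 and 13.5 in that of *C. lepadiformis*. The second of them was past 2-fold above pre-buds and stolons in *P. zorritensis*, at 18.4 and 17.7, which it was not with a common sum or with isoforms summed.

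The V-ATPase pairs differed little between stages. VATA is the catalytic subunit and VATH the regulatory subunit of the soluble V1 part, whereas VATO and VPP1 (subunit a) belong to the membrane part, V0. None of the 4 was past 2-fold between dormant tissue and zooids, pre-buds or stolons in either species on the deposited scale. Rescaled to a common sum, VPP1 passed 2-fold above pre-buds in dormant tissue of *C. lepadiformis*, at 1.03 against 0.95, and VATH passed 2-fold below zooids in that of *P. zorritensis*, at -1.24 against -0.12. VATO lay between 37.3 and 48.8 in *P. zorritensis* and between 57.4 and 78.8 in *C. lepadiformis*. VATA lay between 29.8 and 43.1 and between 23.8 and 49.3, and VATH between 12.4 and 23.7 and between 31.4 and 54.0, in the same order of species.

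On the deposited scale VPP1 was the only member with its highest mean in dormant tissue of both species, as 1.85% of all pairs were. In *P. zorritensis* it stood at 22.0 in zooids, 23.3 in pre-buds, 19.5 in stolons, 34.5 in dormant and 21.4 in germinating tissue. The corresponding means in *C. lepadiformis* were 16.0, 11.3, 20.9, 22.8 and 8.16. The steps above the next stage were small, with a 1.09-fold excess over stolons in *C. lepadiformis*, whereas from dormant to germinating tissue the log2 difference was -1.38 in this species. It was the only member past 2-fold lower in germinating tissue there, beside 6.32% of all pairs, and was at the 2.29 percentile. With a common sum dormant tissue of *P. zorritensis* was below zooids, pre-buds and stolons for VPP1, at -0.52, -0.18 and -0.13. Its highest mean was then not in dormant tissue of that species, and its difference from stolons in *C. lepadiformis* was 0.0032.

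The proteases fell into a group present in every stage and a pair of genes found almost only in zooids. CATB (cathepsin B) and CATC (cathepsin C, which activates other proteases) were highest in dormant tissue of *P. zorritensis*. CATB there was 161 in zooids, 184 in pre-buds, 219 in stolons, 415 in dormant and 273 in germinating tissue. CATC was 57.5 in zooids, 139 in pre-buds, 100.4 in stolons, 178 in dormant and 107 in germinating tissue. Relative to zooids they were 2.58-fold and 3.10-fold higher in dormant tissue, at the 91.6 and 93.7 percentiles. Neither remained past 2-fold with a common sum, where their log2 differences were 0.18 and 0.43.

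In *C. lepadiformis* CATB had a similar order from a higher start, at 239 in zooids, 316 in pre-buds, 279 in stolons, 372 in dormant and 450 in germinating tissue. CATC lay between 50.9 and 89.6 there, with its highest mean in germinating tissue. CATH (cathepsin H) lay between 59.8 and 109 in *P. zorritensis* and between 129 and 205 in *C. lepadiformis* without passing 2-fold, save against stolons of the former with a common sum, at -1.02. LGMN (legumain, an asparaginyl endopeptidase) was 174 in stolons of *P. zorritensis* against 53.0 in dormant tissue, a log2 difference of -1.70, and between 111 and 164 in *C. lepadiformis*.

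CATD (cathepsin D, an aspartic protease) and CATL1 (cathepsin L) were instead nearly restricted to zooids. In *P. zorritensis* the mean of CATL1 was 90.8 in zooids and no higher than 0.376 in other stages. In *C. lepadiformis* it was 590 in zooids, where it ranked 146th among 18610 transcripts, and at most 0.235 elsewhere. CATD was 35.0 in zooids of *P. zorritensis*, was listed at 0 in pre-buds, and reached 0.723 in dormant and 1.03 in germinating tissue. Its mean in *C. lepadiformis* was 88.7 in zooids and at most 0.524 elsewhere. On the log2(mean + 1) scale the differences of dormant tissue from zooids were -4.39 and -6.24 for CATD and -6.45 and -9.07 for CATL1, the smallest of which was at the 2.04 percentile. CATB, CATC, CATH and LGMN, by contrast, kept a mean of at least 50.9 in every stage of both species.

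Zooids carry a gut, a ciliated branchial basket and body muscle, and most of the marker transcripts listed for these tissues were likewise lower outside zooids. A list of motile cilia genes summed to 431 in zooids of *P. zorritensis* and to between 10.5 and 27.1 in its other stages, and to 542 against between 14.4 and 30.9 in *C. lepadiformis*. Of its pairs, 15 of 16 and 20 of 20 tested were past 2-fold lower in dormant tissue than in zooids, beside 32.7% and 27.3% of all pairs. For digestive enzymes of the gut 9 of 13 and 9 of 14 were lower, while 1 and 2 were higher, among them a pair named CEL2A at 4.54 in zooids and 83.6 in dormant tissue of *C. lepadiformis*. Without pancreatic amylase (AMYP), which was 21.1 in zooids and 8982 in dormant tissue of *P. zorritensis*, the digestive list summed to 870.0 in zooids and between 45.5 and 116 elsewhere in that species, and to 3721 and between 131 and 189 in *C. lepadiformis*. For muscle the counts were 8 of 8 and 7 of 8, and the summed level in *P. zorritensis* was 8857 in zooids, 699 in dormant and 772 in germinating tissue, against 25.9 in pre-buds and 21.9 in stolons. The muscle list of *C. lepadiformis* kept more of its level outside zooids, at 1647 in zooids and between 487 and 624 in the other stages. In bulk tissue fewer cells of a type and less RNA per cell cannot be told apart, and the part of tissue make-up in the levels of the lysosomal genes was not tested.

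From a list of 39 further hydrolase names, 16 were found as 19 pairs. Of these, 9 were highest in zooids of both species, beside 26.8% of all pairs. The 4 named here were picked for the largest difference between dormant tissue and zooids, and all were highest in zooids. The 4 were RISC (a retinoid-inducible serine carboxypeptidase), NAAA (an acid amidase of fatty acid ethanolamides), a pair named PPA5 (tartrate-resistant acid phosphatase) and a pair named ASM (acid sphingomyelinase). RISC was 13.2 in *P. zorritensis* zooids, with 0.252 as its highest mean elsewhere, and 328 against between 20.5 and 30.0 in *C. lepadiformis*. NAAA was 8.38 and 19.6 in zooids of the respective species and at most 0.186 and 0.762 in other stages. The PPA5 pair was 18.6 and 181 in zooids and at most 0.829 and 1.78 elsewhere. ASM was the exception in dormant tissue, with 10.5 in zooids, 6.54 in dormant and at most 0.988 in any other stage of *P. zorritensis*, and 35.1 against at most 0.434 in *C. lepadiformis*. Over this list 7 of 16 pairs tested in *P. zorritensis* and 7 of 19 in *C. lepadiformis* were past 2-fold lower in dormant tissue than in zooids, beside 32.7% and 27.3% of all pairs, the latter 7 with the channel TPC1, which the list also holds. LICH (lysosomal acid lipase) was the only one past 2-fold higher, at 7.43 in zooids and 28.2 in dormant tissue of *P. zorritensis*, and it lost this with a common sum.

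Among the glycosidases and sulfatases, 2 of 4 tested in *P. zorritensis* were past 2-fold lower in dormant tissue than in zooids, beside 32.7% of all pairs. In *C. lepadiformis* 3 of 5 were, beside 27.3%. NAGAB (alpha-N-acetylgalactosaminidase) was 40.8 in zooids of *P. zorritensis* and between 13.3 and 17.0 elsewhere, and 65.3 against between 17.7 and 32.6 in *C. lepadiformis*. Its log2 differences between dormant tissue and zooids were -1.55 and -1.83.

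GLCM (glucocerebrosidase, the enzyme deficient in Gaucher disease) was 28.4 in zooids of *C. lepadiformis* and between 11.0 and 12.1 in the other 4 stages. In *P. zorritensis* it lay between 4.46 and 8.19 and did not pass 2-fold, except with a common sum, where dormant tissue was at -1.75 against zooids and -1.43 against stolons and germinating against dormant tissue at 1.18. With isoforms summed GLCM of *P. zorritensis* was 41.2 in zooids and 50.7 in dormant tissue, a log2 difference of 0.29 in place of -0.75. MA2B1 (lysosomal alpha-mannosidase) lay between 3.06 and 5.59 in *P. zorritensis* and between 15.0 and 36.1 in *C. lepadiformis*, within 2-fold in every comparison tested on the deposited scale. In *C. lepadiformis* its difference between germinating and dormant tissue was just under 2-fold, at 1.00 after rounding, and passed it after rescaling to a median log2 ratio of 0, at 1.02, and its difference between dormant tissue and zooids went from -0.31 to -1.05 with isoforms summed. ARSB, an arylsulfatase, was the only one of the group past 2-fold higher in dormant tissue, at 9.26 against 3.51 in zooids of *C. lepadiformis*. With isoforms summed its log2 difference was 0.23 in place of 1.19, and in *P. zorritensis* it lay between 5.36 and 9.33.

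Of the 5 membrane, lipid and activator proteins, 3 were past 2-fold higher in germinating than in dormant tissue of *P. zorritensis* beside 15% of all pairs, and none was in *C. lepadiformis*, beside 5.56%, a contrast that was not tested. NPC2, the soluble cholesterol carrier of the lysosome, was 197 in zooids, 229.8 in pre-buds, 175 in stolons, 425 in dormant and 398 in germinating tissue of *P. zorritensis*. In *C. lepadiformis* it was 287 in zooids, 98.2 in pre-buds, 58.7 in stolons, 170.3 in dormant and 335 in germinating tissue. NPC2 was the only member past 2-fold the same way in both species against stolons, higher in dormant tissue by log2 differences of 1.28 and 1.52, as 0.321% of all pairs were. In *C. lepadiformis* it was at the 99.4 percentile, and in *P. zorritensis*, at the 89.8 percentile, the difference was 0.32 with a common sum. Against zooids its difference of 1.10 in *P. zorritensis* changed sign under that rescaling, to -0.085, and in *C. lepadiformis* the difference was -0.75.

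NPC1, its membrane-bound partner, had its lowest mean in dormant tissue of *P. zorritensis*, where NPC2 had its highest. Its mean in *P. zorritensis* was 22.2 in zooids, 18.3 in pre-buds, 34.1 in stolons, 6.46 in dormant and 17.3 in germinating tissue. In dormant tissue NPC1 was thereby past 2-fold below each of the other 4 stages, by log2 differences of -1.63, -1.37 and -2.23 from zooids, pre-buds and stolons, with germinating tissue 1.30 above it. In *C. lepadiformis* NPC1 lay between 9.27 and 22.4 and was past 2-fold in none of the 4 comparisons.

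PPT2, a thioesterase of the lysosome, and the first pair named SAP also had their lowest mean in dormant tissue of *P. zorritensis*. PPT2 was 6.42 in zooids, 4.27 in pre-buds, 20.4 in stolons, 2.29 in dormant and 14.1 in germinating tissue. SAP (prosaposin) is cut into the saposins, which help hydrolases to reach their lipids, and its first pair was 58.4 in zooids, 29.7 in pre-buds, 56.0 in stolons, 21.3 in dormant and 75.7 in germinating tissue. From dormant to germinating tissue PPT2 was 6.18-fold and SAP 3.56-fold higher. In *C. lepadiformis* PPT2 lay between 8.41 and 16.7 and the first SAP pair between 141 and 331. The second SAP pair is another isoform of the same gene in *P. zorritensis*, at between 3.69 and 8.92, and a separate gene in *C. lepadiformis*, at between 70.6 and 125, with its highest mean in zooids. In the wider list of lysosomal membrane and delivery, with 6 of 32 names found as 7 pairs, 3 of 5 tested were past 2-fold lower in dormant tissue than in stolons of *P. zorritensis*, beside 18.6% of all pairs, and none of 6 in *C. lepadiformis*, beside 4.52%. SCRB2 (LIMP-2, the carrier of glucocerebrosidase to the lysosome) was 10.4 in stolons and 2.46 in dormant tissue of *P. zorritensis*. CD63, a tetraspanin of late endosomes, was highest in dormant tissue of *C. lepadiformis*, at 87.9 against 31.0 in zooids and 32.2 in germinating tissue, while SPNS1, a lysosomal exporter of lysophospholipids, was highest in stolons of both species, at 32.5 and 14.7. The second pair of S17A5, the sialic acid exporter sialin, was 5.16 and 7.48 in zooids of the respective species and 0.573 and 0.107 in dormant tissue.

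VAT1, which is no subunit of the pump, was 11.0 in zooids of *P. zorritensis* and between 3.04 and 4.48 elsewhere, and 17.5 against between 4.18 and 9.19 in *C. lepadiformis*. It passed 2-fold below zooids in dormant tissue in both species, and with isoforms summed its log2 difference in *C. lepadiformis* was -0.82.

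**Figure D3:**
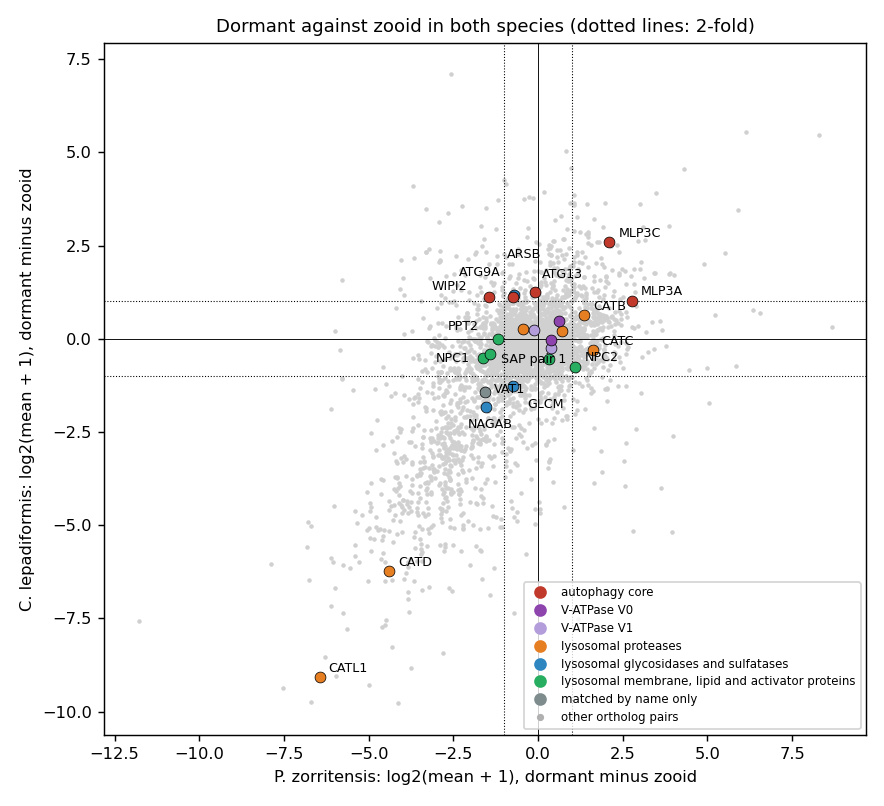
Difference between dormant tissue and zooids on the log2(mean + 1) scale, *P. zorritensis* on the horizontal and *C. lepadiformis* on the vertical axis, for pairs tested in both species (grey) with 24 of the 25 members among them (coloured by role, named where past 2-fold in either species). On the deposited scale MLP3A and MLP3C are past 2-fold higher in both, CATD and CATL1 lie far down the lower left, and WIPI2 is on opposite sides.

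Counted over all roles, dormant tissue of *P. zorritensis* had 5 of 25 tested members past 2-fold above zooids and 9 below, beside 12.7% and 32.7% of all pairs. The 5 were MLP3A, MLP3C, CATB, CATC and NPC2. In *C. lepadiformis* 6 of 26 were above and 6 below, beside 10.4% and 27.3% of all pairs. The medians were -0.45 and -0.13, against -0.43 and -0.34 over all pairs, and that of *P. zorritensis* changed sign to 0.13 with a minimum mean of 10. With a common sum the split in *P. zorritensis* became 1 above and 16 below of 26, with MLP3A the one above, and in *C. lepadiformis* 5 above and 6 below. The median over all pairs then fell as well, to -1.48 in *P. zorritensis* and to -0.40 in *C. lepadiformis*. The share of all pairs past 2-fold under that sum is not given here.

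The other comparisons gave fewer differences. Against pre-buds, 3 of 19 tested members were past 2-fold higher and 2 lower in dormant tissue of *P. zorritensis*, beside 8.46% and 15.7% of all pairs, and in *C. lepadiformis* 1 of 24 was higher and none lower, beside 4.61% and 6.04%. Against stolons, 3 of 22 were higher and 7 lower in *P. zorritensis*, beside 16.3% and 18.6%. The 7 were ATG13, ATG9A, WIPI2, LGMN, NPC1, PPT2 and the first SAP pair. In *C. lepadiformis* NPC2 alone was past 2-fold from stolons, beside 1.42% of all pairs higher and 4.52% lower. With a common sum the splits in *P. zorritensis* were 1 higher and 6 lower against pre-buds and 0 higher and 12 lower against stolons. Over all pairs the medians of these comparisons moved down too, from -0.21 to -0.88 and from -0.019 to -0.90.

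On germination the members of *P. zorritensis* that were past 2-fold higher were NPC1, PPT2 and the first SAP pair, 3 of 20 tested, and those lower were MLP3A and MLP3C, beside 15% and 5.96% of all pairs. In *C. lepadiformis* MLP3C was higher and VPP1 lower, 1 each of 24, beside 5.56% and 6.32%. The split with a common sum was 7 higher and 0 lower in *P. zorritensis*, and 1 higher and 4 lower in *C. lepadiformis*. That rescaling moved the median over all pairs the same way, from 0.19 to 0.72 and from -0.059 to -0.67 in the respective species. No member passed 2-fold the same way in both species on germination, beside 0.774% of all pairs in each direction, and MLP3C did so in opposite ways, as 2.24% did.

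**Figure D4:**
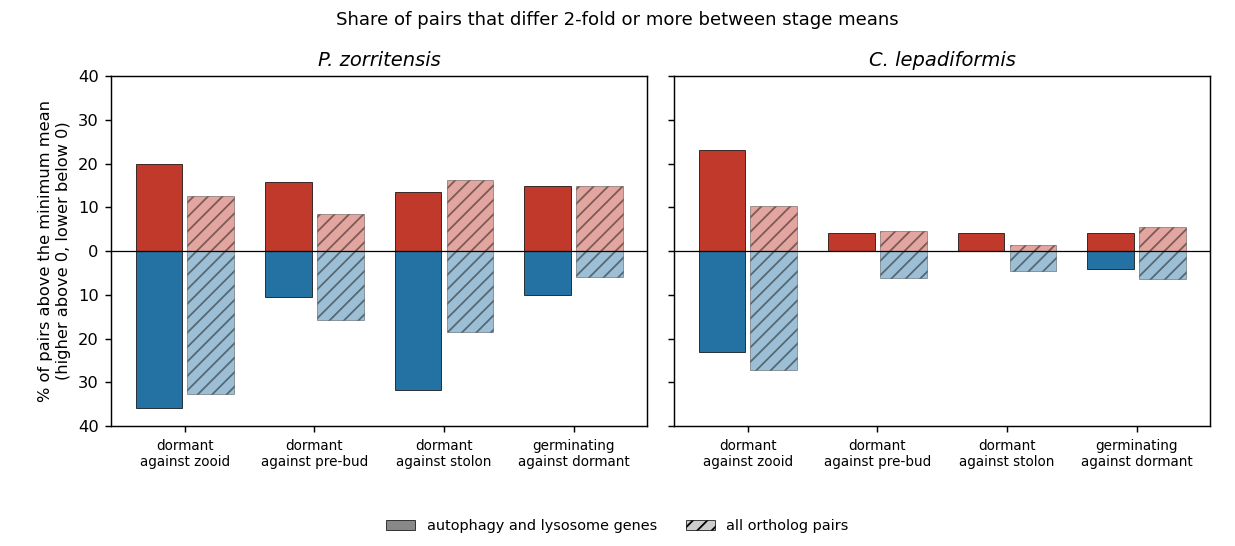
Percent of tested pairs that differed by at least 2-fold between stage means, higher above 0 and lower below it, for the autophagy and lysosome genes (filled) and for all ortholog pairs (hatched) in 4 comparisons per species. In *C. lepadiformis* members differed 2-fold mainly against zooids, with 6 higher and 6 lower of 26, beside 10.4% and 27.3% of all pairs. All pairs of this species also passed 2-fold most often in that comparison. In *P. zorritensis* 7 of 22 members were lower in dormant tissue than in stolons, beside 18.6% of all pairs.

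The stage with the highest mean differed between the species. In *P. zorritensis* it was the zooid for 7 members, the pre-bud for 2, the stolon for 7, dormant tissue for 7 and germinating tissue for 3. The corresponding shares of all pairs were 37.7%, 10.4%, 16.6%, 16.9% and 18.4%. The 7 highest in dormant tissue were MLP3A, MLP3C, VATO, VPP1, CATB, CATC and NPC2, and with a common sum 2 members were. Of the 7 highest in stolons, 5 had their lowest mean in dormant tissue, as did 370 of the 732 such pairs among all, and 9 members in all had their lowest mean there, beside 32% of all pairs.

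In *C. lepadiformis* germinating tissue had the highest mean for 13 of the 26 members, beside 16.4% of all pairs, zooids for 8 (45.5%), pre-buds for 3 (14.1%), dormant tissue for 2 (7.64%) and stolons for none (16.4%). The sum of values was also largest in germinating tissue, and with a common sum 7 members were highest in dormant tissue in place of 2. Of the 13, ATG13, ATG9A, MLP3A, CATB, CATH, LGMN, ARSB and VATH were then below dormant tissue in germinating tissue. Their log2 differences ran from -0.13 for VATH to -0.48 for ATG9A. MLP3C, MA2B1, NPC2, CATC and the first SAP pair stayed above dormant tissue, by between 0.092 for CATC and 1.00 for MLP3C. The same stage was highest in both species for 10 members, 38.5% beside 39.3% of all pairs, and this was the zooid for 6 of them, beside 26.8% of all pairs.

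Between the species, the log2 differences of dormant tissue from zooids had a Spearman correlation of 0.55 across the 25 members tested in both, which all rest on the same stage means, beside 0.49 across 3389 pairs. MLP3A and MLP3C were past 2-fold higher in both species, beside 3.33% of all pairs, and CATD, CATL1, NAGAB and VAT1 were among those past 2-fold lower in both, beside 19.1%. With a common sum MLP3A of *C. lepadiformis* and MLP3C of *P. zorritensis* were under 2-fold, at 0.95 and 0.93, so neither gene was then higher in both. On the deposited scale the sign was shared by 14 of the 25, 56% beside 65.2% of all pairs. Against pre-buds no member was past 2-fold higher or lower in both species, beside 0.707% and 1.41% of all pairs, and WIPI2 alone was past it in opposite directions, beside 1.77%. Against stolons NPC2 alone was higher in both, none was lower in both or opposite, and 1.52% and 1.12% of all pairs were. The correlations were -0.084 across 19 members against pre-buds, 0.072 across 22 against stolons and -0.17 across 20 from dormant to germinating tissue, beside -0.0063, 0.16 and -0.12 over all pairs.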

How the data were processed

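The values are those of 2 matrices of signal, deposited by the authors as means per stage of TMM-scaled TPM for 27938 and 18610 transcripts. Per the study's methods, the authors corrected and trimmed reads, removed ribosomal RNA, assembled each species de novo with Trinity from all stages pooled, dropped those below 5 TPM and estimated abundances with Kallisto 0.46.0. The reads per sample are not given in the sources used here, and values per replicate were not analysed, so that no precision can be stated. A table of 4424 rows, of which 2 were exact repeats, gave the pairing by reciprocal best hits and the names. Its 4 columns hold the stages in which the authors called each transcript up or down, and were not used.

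Members were matched by entry name, first of *P. zorritensis*, then of *C. lepadiformis*. Log2 differences used a pseudocount of 1. Members and lists were chosen with earlier results of these data known. The genes named are up to 6 per role and up to 4 per pathway list with the largest difference between dormant tissue and zooids averaged over the species, members past 2-fold the same way in both species in another comparison or highest in dormant tissue of both, and the highest and lowest of each role. All 26 members met this rule, and 1 of them, counted in the totals, is not reported here by name. LICH was added after its values were seen. In the hydrolase list TPC1 is a channel and no hydrolase. Roles are those of the human or other mammalian proteins.

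Alternatives were thresholds of 1.5-fold and 3-fold, no minimum mean or one of 10, pseudocounts of 0.1 and 5, rescaling of the stages to a common sum or to a median log2 ratio of 0, isoforms summed per Trinity gene, 1 pair per name, the same name in both species, and VAT1 left out. Scripts ran in Python 3.11.15 with numpy 2.4.6, pandas 2.3.3, scipy 1.17.1 and matplotlib 3.10.9, and were tested on simulated data. No sequences were used.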

Additional observations from a re-analysis of the deposited data

Results flagged for a closer look

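WIPI2 passed 2-fold in opposite directions in the 2 species in 2 comparisons, always lower in dormant tissue of *P. zorritensis* and higher in that of *C. lepadiformis*. Against zooids its log2 differences were -1.43 and 1.12, and against pre-buds they were -1.55 and 1.18. MLP3C did so from dormant to germinating tissue, at -1.11 for *P. zorritensis* against 1.66 for *C. lepadiformis*. These differences between the species were not tested, as each stage has 1 mean. With a common sum the value of MLP3C in *P. zorritensis* was -0.52, within 2-fold, while WIPI2 stayed past 2-fold on both sides.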

How the results depend on the processing

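No paired analysis was possible because the columns are means per stage and carry no replicate number, and for the same reason no replicate could be left out. The number of members past 2-fold in either direction stayed within 1.5 times under the other minimum means, isoforms summed, other choices of members and rescaling to a median log2 ratio of 0. In *P. zorritensis* and *C. lepadiformis*, dormant tissue differed from zooids by 3-fold in 7 and 4 members (14 and 12 by 2-fold). From pre-buds it differed by 3-fold in 1 and 0 and by 1.5-fold in 8 and 7 (5 and 1 by 2-fold), and from stolons by 3-fold in 5 and 0 and, in *C. lepadiformis*, by 1.5-fold in 2 (10 and 1 by 2-fold). Germinating differed from dormant tissue by 3-fold in 2 and 1 and by 1.5-fold in 11 and 9 (5 and 2 by 2-fold). The shares of all pairs at 3-fold and 1.5-fold are not given here, so these counts cannot be set beside them. With a common sum, *C. lepadiformis* had 2 against pre-buds and 5 on germination, and the members highest in dormant tissue numbered 2 in *P. zorritensis* and 7 in *C. lepadiformis* in place of 7 and 2.

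The Spearman correlation between the species against zooids was 0.66 with a minimum mean of 10, and that against pre-buds turned to 0.0051 without a minimum and to 0.020 with the same name in both species. Several median log2 differences of the members changed sign. With a minimum mean of 10 those of *P. zorritensis* were 0.13 against zooids, from -0.45, 0.024 against pre-buds, 0.13 against stolons and -0.034 on germination. With the same name in both species they were 0.17 against pre-buds and -0.016 on germination, which was -0.061 after rescaling to a median log2 ratio of 0. In *C. lepadiformis* the median on germination was -0.41 with a common sum, from 0.24, while that of all pairs went to -0.67. Of 50 differences of single members past 2-fold, 11 fell under 2-fold with a common sum and NPC2 of *P. zorritensis* against zooids changed sign, to -0.085. A pseudocount of 5 took 9 under 2-fold, isoforms summed 3 and rescaling to a median log2 ratio of 0 took 1. The cause of these shifts was not tested. Values of a few TPM, as in CATD outside zooids or ATG9A of *P. zorritensis*, carry the least information, and their depth is unknown.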
